A study of Neurospora crassa with 6 samples.

Results

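The effect of 2-deoxyglucose (2-DG) added to heat was described in the *os-2* mutant of the filamentous fungus *Neurospora crassa*, as the transcript level of each gene in the dual stress library (os2 DS) over that in the heat shock library (os2 HS). The study holds 6 libraries of polyadenylated RNA from conidiospores germinated for 5 hr in medium with 0.05% glucose. os2 DS was kept at 45°C with 2-DG for 2 hr, os2 HS at 45°C without 2-DG for 2 hr, and os2 30 stayed at 30°C for 1 hr more. The wild type (wt, OR74A) gave the same 3 libraries, wt DS, wt HS and wt 30. Both libraries compared here carry the *os-2* mutation and were heated, so the labelled difference between them is the addition of 2-DG, and differences between the 2 cultures and library preparations are in the ratio as well. Levels are FPKM, the fragments mapped to a transcript scaled to its length and to the size of the library, and a log2 ratio of 1 is a 2-fold difference. Averaged over the 6 libraries, 8098 of 9730 genes reached 1 FPKM, and 8078 of these were above 0 in both os2 DS and os2 HS and were compared.

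The glucose analogue 2-DG is phosphorylated on entry into the cell but is not carried through glycolysis, so it interferes with glucose use and with the glycosylation of proteins. Heat shock brings out chaperones, which hold, refold or disaggregate damaged proteins, and ubiquitin, which marks proteins for the proteasome. Os-2 is a stress-activated MAP kinase of the p38 and Hog1 family, which acts below the histidine kinase Os-1, the response regulator RRG-1 and the kinases Os-4 and Os-5 and is known for osmotic stress and for resistance to certain fungicides.

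Each condition is 1 library, so no difference has a replicate check and no test, SD or p-value is given. Genes were called higher or lower at 2-fold, which is a description of these libraries. The mutant is 1 strain, UCLA 80A, a point mutant in an SL4 background that makes a truncated protein, so strain background and mutation cannot be told apart in any comparison with wt. The number of fragments behind a value was not used here, and the precision of single values is unknown. As each library pools a culture, a difference in the number of cells that carry a transcript and one in its amount per cell cannot be told apart. Total FPKM was 484273 in os2 DS, against 426267 in os2 HS, while median FPKM over all genes was 11.95 in os2 DS and 11.49 in os2 HS. Scaling both columns to the same total shifted each log2 DS/HS by -0.18.

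The *os-2* transcript (NCU07024, chromosome IV of assembly NC12, 4948586 to 4952179) was measured in the mutant at 37.47 FPKM in DS, 37.01 FPKM in HS and 34.3 FPKM at 30°C. The wt libraries had 67.1, 65.1 and 113 FPKM in DS, HS and at 30°C. The transcript of a point mutant can be present, so these levels do not check the labels. Of the conidiation genes taken as markers of the material, *con-13* was between 0.211 and 0.499 FPKM in the 3 os2 libraries, *con-10* between 25.6 and 40.4 FPKM, *con-8* between 21.1 and 161 FPKM, *con-6* between 2.41 and 25.5 FPKM, and the hydrophobin gene *eas* between 8.58 and 560 FPKM. The con genes other than *con-13* were lowest at 30°C and highest in DS, while *eas* was highest at 30°C and lowest in HS. Other members of the Os-2 pathway were below 2-fold. *os-1* (NCU02815), the sensor kinase, had a log2 DS/HS of -0.14, *rrg-1* (NCU01895) of 0.62, *os-4* (NCU03071), the MAPKKK, of 0.70, and *os-5* (NCU00587), the MAPKK, of 0.44.

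Addition of 2-DG to heat was accompanied in os2 by higher transcripts of nitrogen uptake genes, of a few chaperones and of ubiquitin genes. Core histones were higher as well, and so were some cell wall and vacuolar genes, most of which the study had listed by transcript. A smaller number of genes for the synthesis of arginine, purines and other amino acids were lower by 2-fold or more, though 3 amino acid genes were higher. Lipid genes passed 2-fold in both directions, with 7 higher and 6 lower of 32. Most of the transcriptome differed little. Of the 8078 genes compared, 824 (10.2%) had 2-fold or more of their os2 HS level in os2 DS, 595 (7.37%) were lower by 2-fold or more, together 17.6%, and 4877 (60.4%) lay within 1.5-fold. Which count was larger turned with the scaling, since after scaling both libraries to 1 total 577 genes were higher and 919 lower. Larger differences were mostly on the higher side, with 165 genes 4-fold or more higher and 36 lower by as much. The median log2 DS/HS was 0.02, with 90% of genes between the 5th percentile of -1.16 and the 95th of 1.41. Just inside the limit, NCU04670 had 18.8 FPKM in DS against 9.41 in HS, and just outside it NCU01833 (*nik-2*) had 23.9 against 11.9. On the lower side NCU03408 lay just inside, at 1.66 FPKM in DS against 3.32 in HS, and NCU00408 just outside, at 69.2 against 138.

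**Figure D1:**
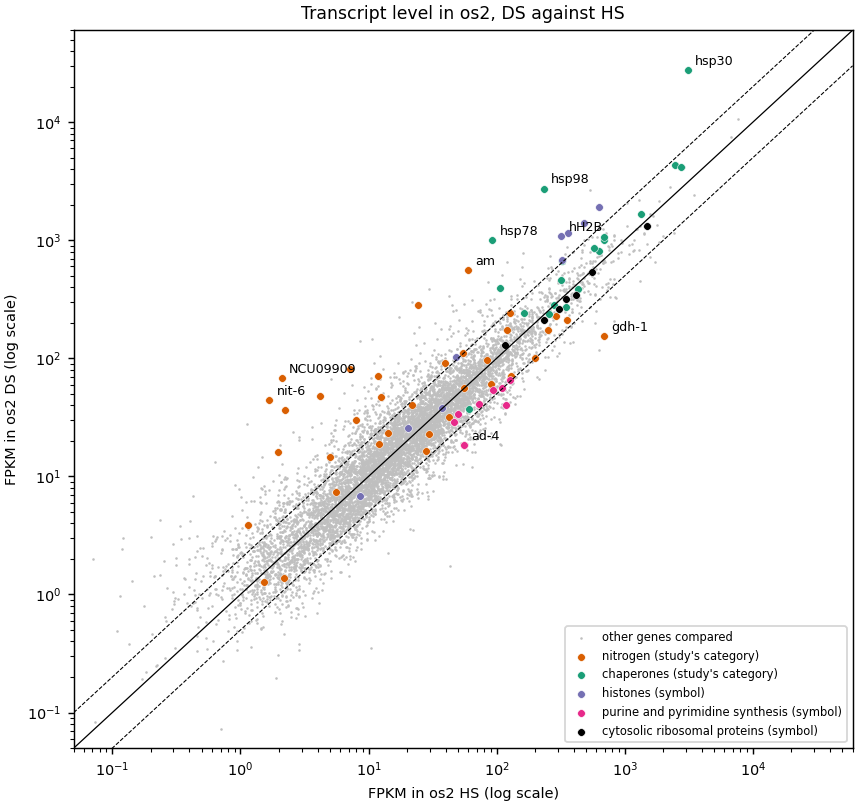
FPKM in os2 DS (vertical axis) against os2 HS (horizontal axis), both on log scales, with 1 point per gene above 0.05 FPKM in both (9 genes not drawn), a solid line at equal levels and dashed lines at 2-fold. *hsp30*, *hsp98*, *hsp78*, *am*, *nit-6* and the urea transporter NCU09909 stand above the upper dashed line, *gdh-1* and *ad-4* below the lower one, and the cytosolic ribosomal proteins on the solid line.

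Shares of genes past 2-fold were largest among the lowest transcripts, and from 1 FPKM upward the share on the higher side varied little. Genes with a mean of 1 to 10 FPKM in the 2 libraries were higher in 10.9% and lower in 9.35% of 2684 cases. Among 4432 genes of 10 to 100 FPKM the shares were 9.12% and 6.50%, among 812 genes of 100 to 1000 FPKM 11.1% and 4.43%, and among 34 genes of 1000 FPKM or more 11.8% and 8.82%. The 116 genes under 1 FPKM had the largest shares, 28.4% higher and 14.7% lower. Of the genes compared, 8 had a value below 0.01 FPKM in 1 library, where the ratio has no meaning beyond its sign. A further 14 genes were listed at 0 in 1 of the 2 libraries and left out. Of those only NCU09953 reached 10 FPKM in the other library, with 10.1 FPKM in os2 DS, a listed 0 in os2 HS and 10.5 FPKM at 30°C.

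The most abundant transcript of os2 DS was that of a heat shock gene. *hsp30* (NCU09364, chromosome I, 3586694 to 3588207), which encodes a small heat shock protein, made up 5.70% of all FPKM in os2 DS, against 0.730% in os2 HS. The 10 genes with the largest shares took 14.3% of os2 DS. They were *hsp30*, NCU04314 at 2.21%, *ccg-16* (NCU05495) at 1.55%, *hsp80* (NCU04142) at 0.904%, NCU16635 at 0.856%, *hsp70-1* (NCU09602) at 0.854%, the ADP/ATP carrier *aac* (NCU09477) at 0.582%, *hsp98* (NCU00104) at 0.562%, polyubiquitin *ubi* (NCU05995) at 0.553% and elongation factor *tef-1* (NCU02003) at 0.502%. Of these 10, only *hsp30*, *hsp98* and *ubi* were at least 2-fold higher in os2 DS than in os2 HS. NCU04314 had 10725 FPKM in DS, 7606 FPKM in HS and 175 FPKM at 30°C, so its high level was already present in heat alone.

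Among chaperones the differences were concentrated in the disaggregases and the small heat shock protein. *hsp98*, a disaggregase of the cytosol, had 2721 FPKM in os2 DS, against 232 FPKM in os2 HS and 45.6 FPKM in os2 30, an 11.7-fold difference between DS and HS (log2 3.55). *hsp78* (NCU02630), its mitochondrial relative, had 996 FPKM in DS, against 92.6 in HS and 14.02 at 30°C (log2 DS/HS 3.43). *hsp30* had 27607 FPKM in DS, against 3112 in HS and 43.0 at 30°C (log2 DS/HS 3.15). Each of the 3 was thus higher in HS than at 30°C and higher again in DS.

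Fes1 (NCU04172), which exchanges nucleotide on Hsp70, had 391.6 FPKM in os2 DS, against 106 FPKM in os2 HS (log2 1.88), and the Hsp40 co-chaperone Sis1 (NCU03732) had 670 against 322 (log2 1.06). The major chaperones were abundant in both libraries and below 2-fold. *hsp70-1* had 4138 FPKM in DS against 2724 in HS (log2 0.60), *hsp80*, the Hsp90 of this fungus, 4378 against 2462 (log2 0.83), and *hsp60* (NCU01589), the mitochondrial chaperonin, 812 against 625 (log2 0.38). *grp78* (NCU03982), the Hsp70 of the endoplasmic reticulum, had a log2 DS/HS of 0.63. *hsp70-2* (NCU02075) went the other way, with 252 FPKM in DS against 593 FPKM in HS (log2 -1.24).

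Of the 19 chaperones that the study tabulated, 5 were at least 2-fold higher and 0 lower in os2 DS, with a median log2 DS/HS of 0.56, beside 0.02 over all genes. The 5 were among the 6 that the study had tabulated for their transcripts, and none of the 13 listed by protein alone passed 2-fold (median 0.38). Genes listed both ways, which include *hsp30*, *hsp78*, Fes1 and Sis1, were counted with the transcripts here and in the lists below. The study chose its transcript categories on these same libraries, so counts over them describe the choice as much as the libraries and give no independent evidence of direction. The 2 heat shock factor genes had log2 ratios of 0.46 for *hsf-1* (NCU08512) and 0.57 for *hsf-2* (NCU08480).

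**Figure D2:**
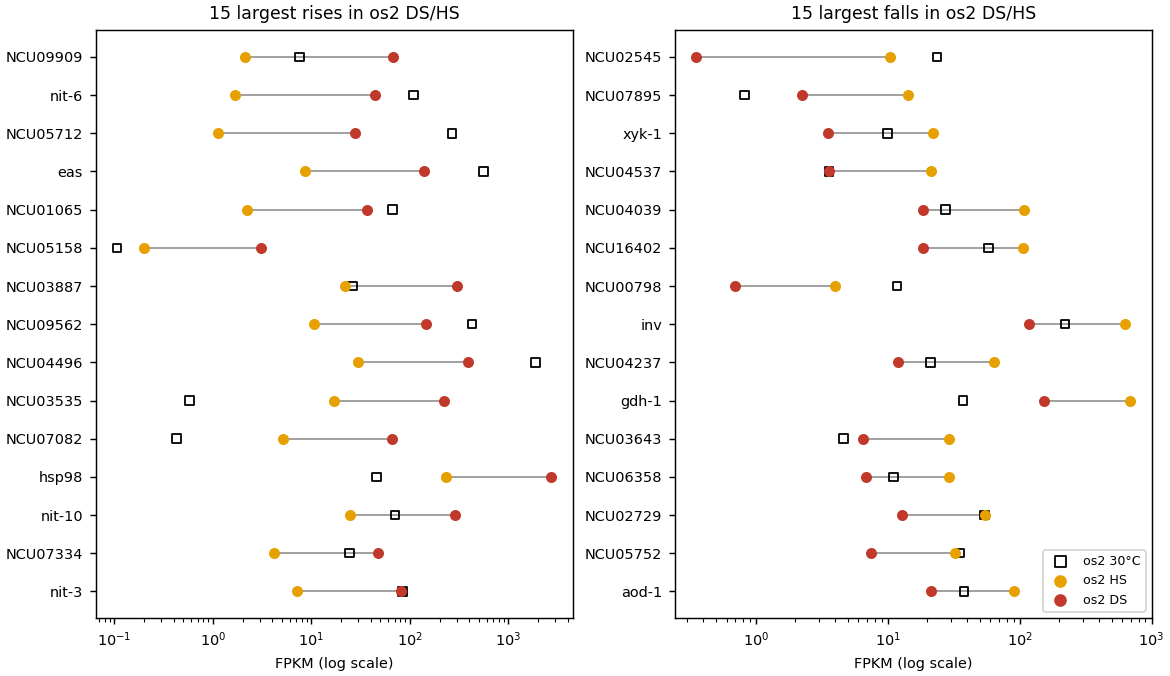
FPKM on a log scale of the 15 genes with the largest rises and the 15 with the largest falls in os2 DS/HS among genes with a mean of at least 10 FPKM over the 6 libraries, as open squares in os2 30, orange points in os2 HS and red points in os2 DS, 1 library each. For *nit-3* the DS level (80.7 FPKM) lies at the 30°C level (84.4 FPKM), while for *hsp98* it lies far above it.

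Ubiquitin transcripts were higher as well. Polyubiquitin *ubi* had 2676 FPKM in os2 DS, against 531 FPKM in os2 HS and 750 FPKM in os2 30 (log2 DS/HS 2.33). A ubiquitin ligase (NCU06815) had 198 FPKM in DS against 32.8 in HS (log2 2.59), and a ubiquitin fusion degradation protein (NCU06856) 164 against 45.6 (log2 1.85). Of the study's 10 ubiquitin and proteasome genes, 7 were at least 2-fold higher and 0 lower (median 1.75), and these were the 7 that it had tabulated for their transcripts. Subunits of the proteasome itself, taken by symbol, showed no such difference. Of 30 compared, *rpn-4* (NCU01640) alone passed 2-fold, with 145 FPKM in DS against 64.0 in HS, and the median was -0.05. In budding yeast Rpn4 is a transcription factor of proteasome genes, while the study lists this gene as a 26S subunit.

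Nitrogen genes held the largest single differences. These genes take up and assimilate nitrate, ammonium, urea and other sources, and in *Neurospora* many are switched on by the regulator NIT2 when preferred nitrogen is scarce. The urea active transporter (NCU09909, chromosome I, 45332 to 48154) had 68.1 FPKM in os2 DS, against 2.10 FPKM in os2 HS and 7.61 FPKM in os2 30. Its 32.4-fold difference (log2 5.02) was the largest among the 5585 genes with a mean of at least 10 FPKM. *nit-6* (NCU04720), nitrite reductase, had 43.9 FPKM in DS, against 1.68 in HS and 108 at 30°C (log2 DS/HS 4.71). The DS level of *nit-6* was thus far above HS but below the 30°C control.

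*nit-3* (NCU05298), nitrate reductase, had 80.7 FPKM in os2 DS, against 7.21 FPKM in os2 HS and 84.4 FPKM in os2 30 (log2 DS/HS 3.49). *nit-10* (NCU07205), the nitrate permease, had 285 FPKM in DS, against 24.5 in HS and 70.8 at 30°C (log2 DS/HS 3.54). The ammonium transporter Mep2 (NCU01065) had 36.3 FPKM in DS, against 2.24 in HS and 66.3 at 30°C (log2 DS/HS 4.02). Of these only *nit-10* and the urea transporter exceeded the 30°C library in DS.

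Glutamate dehydrogenases moved in opposite directions. *am* (NCU01195), the NADP-specific enzyme that assimilates ammonium, had 558 FPKM in os2 DS, against 59.3 FPKM in os2 HS and 2322 FPKM in os2 30 (log2 DS/HS 3.23). *gdh-1* (NCU00461), the NAD-specific enzyme that breaks glutamate down, had 153 FPKM in DS, against 692 in HS and 37.2 at 30°C (log2 DS/HS -2.17). In DS both stood between their HS and 30°C levels.

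Some genes for organic nitrogen were past 2-fold as well. The L-amino acid oxidase *lao* (NCU01066) had a log2 DS/HS of 3.04, a uracil permease (NCU07334) of 3.50, a purine permease (NCU06918) of 2.58, arginase (NCU02084) of 1.92 and allantoinase *aln-1* (NCU02296) of 1.90. Others were not, among them a second L-amino acid oxidase (NCU01106) with a log2 DS/HS of -0.25 and glutaminase A (NCU03648) with -0.93. Of the regulators named here only TamA was past 2-fold. *nit-2* (NCU09068) had 20.8 FPKM in DS against 17.7 in HS, *nit-4* (NCU08294), the activator of the nitrate genes, 3.78 against 4.67, and *nmr* (NCU04158), the repressor that binds NIT2, 60.4 against 91.1. TamA (NCU05994), named for a co-activator of *Aspergillus*, had 14.6 FPKM in DS against 5.04 in HS (log2 1.53).

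Of the 39 nitrogen genes of the study's tables, 15 were at least 2-fold higher and 2 lower in os2 DS, with a median of 0.51. A log2 DS/HS below 0 was found for 17 of them. These included *arg-2*, *arg-10*, *spe-1*, *spe-2*, *spe-3*, *ad-4*, *ad-5* and *ad-8*, which serve synthesis of arginine, polyamines and purines, and also *gdh-1*, glutamine synthetase *gln-1* (NCU06724), *nmr*, NCU01106 and glutaminase A. Of the 28 genes tabulated for their transcripts, which the study chose on these same libraries, 14 were higher. Of the 11 listed by protein alone 1 was (9.09%), *npd-1* (NCU03949) with a log2 DS/HS of 1.02, where 10.2% of all genes were higher. *nit-3* and *nit-6* are listed by protein too and were counted with the transcripts.

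**Figure D3:**
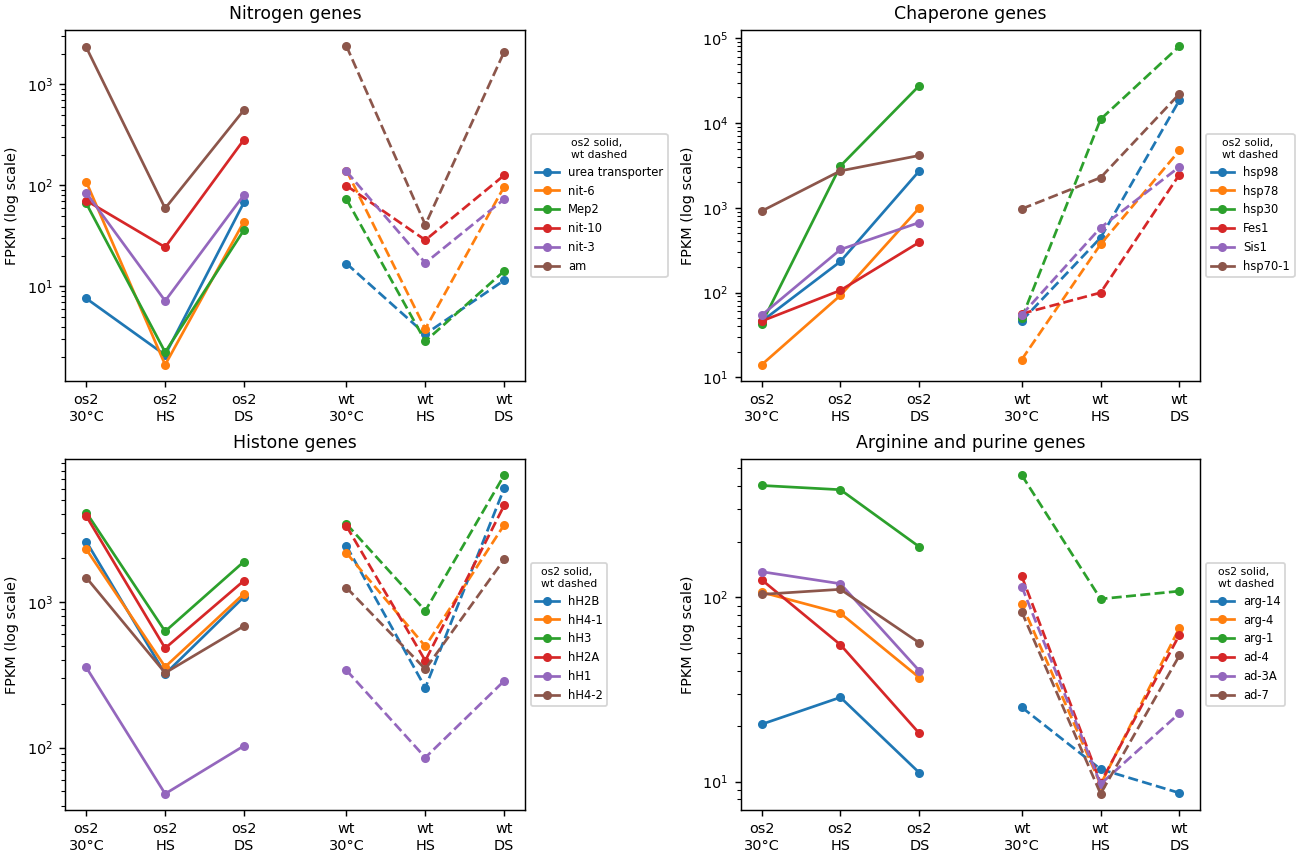
FPKM on a log scale of 6 genes each for nitrogen, chaperones, histones, and arginine and purine synthesis, at 30°C, in HS and in DS, with os2 as solid lines at the left, wt as dashed lines at the right and 1 library per point. The histone genes are lowest in HS in both strains, with hH2B at 1085 FPKM in os2 DS and 321 FPKM in os2 HS, and 6035 FPKM in wt DS and 258 FPKM in wt HS, and in os2 the 6 arginine and purine genes are lowest in DS.

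Lists of synthesis genes had medians below 0, though most of their members were within 2-fold. All 8 genes with a symbol for purine or pyrimidine synthesis were below their HS level, with a median log2 DS/HS of -0.90 and 2 past 2-fold, where 7.37% of all genes were lower by as much. *ad-4* (NCU06187), adenylosuccinate lyase, had 18.3 FPKM in DS against 55.2 in HS (log2 -1.60), and *ad-3A* (NCU03166) 39.9 against 118 (log2 -1.57). Of 16 genes for arginine and polyamines, 11 were below HS and 3 past 2-fold, with a median of -0.64. The 3 were *arg-14* (NCU07682) with a log2 DS/HS of -1.36, *arg-4* (NCU10468) of -1.16 and *arg-1* (NCU02639) of -1.03.

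Among 43 other amino acid synthesis symbols 6 were at least 2-fold lower and 3 higher, beside 7.37% and 10.2% of all genes. The 3 higher ones include *am*, and the median of the 43 was -0.45. The lower ones were *aro-6* (NCU05548, 55.3 FPKM in DS against 164 in HS), *ser-7* (NCU01429, 48.2 against 143), *thr-4* (NCU04277, 8.56 against 24.3), *met-7* (NCU02430, 32.4 against 82.6), *met-5* (NCU07001, 10.2 against 21.9) and *aro-1* (NCU01632, 46.3 against 95.1). *cpc-1* (NCU04050), the activator of amino acid synthesis genes under cross-pathway control, had 967 FPKM in DS, against 1849 in HS and 2111 at 30°C (log2 DS/HS -0.93). These medians kept their sign under each scaling tried, between -1.08 and -0.89 for purines and pyrimidines, -0.82 and -0.63 for arginine and polyamines, and -0.63 and -0.44 for amino acids.

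Lipid genes differed in both directions. Of 32 that the study tabulated, 7 were at least 2-fold higher and 6 lower, with a median of -0.27. Of all genes 10.2% were higher and 7.37% lower. The 7 and the 6 lipid genes were all among the 30 listed by transcript, which the study chose on these same libraries. Among the lower ones were the fatty acid synthase genes *cel-1* (NCU07308, 29.3 FPKM in DS against 68.1 in HS) and *cel-2* (NCU07307, 45.4 against 92.1), a fatty acid elongase (NCU08976, 28.6 against 63.7), the oleate desaturase *ods* (NCU02209, 46.8 against 134), glycerol kinase (NCU06005, 46.6 against 112) and a phosphatidic acid phosphatase (NCU09692, 1.56 against 6.14). Among the higher ones were a neutral ceramidase (NCU04721, 28.5 against 4.27), the sterol methyltransferase *erg-4* (NCU03006, 109 against 34.8) and glycerol dehydrogenase *gcy-1* (NCU04923, 54.7 against 11.4).

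Core histones were higher together. Of 9 histone genes 6 were at least 2-fold higher and 0 lower, where 10.2% of all genes were higher and 7.37% lower. The median log2 DS/HS of the 9 was 1.10, which was 0.91 after scaling to 1 total. hH2B (NCU02435) had 1085 FPKM in os2 DS, against 321 FPKM in os2 HS and 2600 FPKM in os2 30. hH4-1 (NCU01634) had 1142 FPKM in DS against 358 in HS, hH3 (NCU01635) 1895 against 628, and hH2A (NCU02437) 1402 against 482. hH1 (NCU06863) and hH4-2 (NCU00212) had log2 ratios of 1.10 and 1.07. The variants hH2Az (NCU05347), hH3v (NCU00145) and hH4v (NCU04338) had 0.01, 0.32 and -0.33. Both hH4 genes encode near-identical proteins, and how reads were divided between them is uncertain.

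Cell wall genes followed. Of 24 that the study tabulated, 11 were at least 2-fold higher and 0 lower (median 0.77). They were all 8 listed by transcript and 3 of 16 listed by protein alone (18.75%), where 10.2% of all genes were higher. *eas* (NCU08457), the hydrophobin that coats conidia, had 140 FPKM in os2 DS, against 8.58 FPKM in os2 HS and 560 FPKM in os2 30 (log2 DS/HS 4.03). *acw-10* (NCU03013), an anchored wall protein, had 98.7 FPKM in DS against 21.5 in HS. Genes for chitin included a chitin synthesis regulator (NCU00247, 59.3 against 7.48), chitin synthase *chs-6* (NCU05268, 86.3 against 23.6) and *gfa1* (NCU07366, 407 against 157), which makes the glucosamine phosphate from which chitin is built.

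Vacuolar and autophagy genes had a median log2 DS/HS of 1.04 over 21 genes, 0.86 after scaling to 1 total, and 11 were at least 2-fold higher and 0 lower. Higher were 10 of the 12 listed by transcript, which the study chose on these same libraries. Of the 9 listed by protein alone 1 was higher (11.1%), near the 10.2% of all genes. The kinase Atg1 (NCU00188, *apg-1*), which starts autophagosome formation, had 93.0 FPKM in os2 DS against 37.9 FPKM in os2 HS, and its partner Atg17 (NCU08766) 206 against 96.7. A vacuolar amino acid transporter (NCU06231) had 254 FPKM in DS against 47.8 in HS (log2 2.41). Vacuolar protease *pep4* (NCU02273) had 350 FPKM in DS against 421 in HS, and the 14 subunits of the vacuolar ATPase taken by symbol had a median of -0.06 with none past 2-fold.

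Energy genes differed little, apart from alternative respiration. None of the 29 complex I subunits, the 19 genes for cytochrome oxidase and the bc1 complex, the 20 TCA cycle symbols or the 7 cytosolic ribosomal proteins passed 2-fold, and their medians were -0.06, -0.09, 0.04 and -0.15. The ribosomal proteins here are those with a symbol, and of 3 ribosomal genes that the study tabulated 2 were past 2-fold, the 60S protein L22 (NCU06661, 92.6 FPKM in DS against 190.4 in HS) and the pre-rRNA processing protein Ipi-1 (NCU09094, 10.3 against 32.6). All 12 glycolysis and gluconeogenesis genes of the study's tables were below their HS level, with a median of -0.52, but only a phosphoglycerate mutase (NCU09489, 18.7 FPKM in DS against 58.7 in HS) was past 2-fold. Hexokinase *emp-1* (NCU02542), which phosphorylates glucose and 2-DG, had 117 FPKM in DS against 167 in HS, and the glucose transporter *hgt-1* (NCU10021) had 1161 FPKM in DS, against 2434 in HS and 609 at 30°C. Fermentation genes had a median of 0.33 over 9 with none past 2-fold.

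The alternative oxidases, which pass electrons to oxygen without pumping protons, differed in opposite directions. *aod-1* (NCU07953) had 21.2 FPKM in os2 DS, against 89.9 FPKM in os2 HS and 37.9 FPKM in os2 30 (log2 DS/HS -2.09), while *aod-3* (NCU04874) had 36.8 FPKM in DS, against 9.70 in HS and 2.03 at 30°C (log2 DS/HS 1.93). *aod-3* was thus the more abundant of the 2 in DS and *aod-1* in HS, on the FPKM scale, which is per length of transcript. The external NADH dehydrogenases *nde-1* (NCU05225) and *nde-2* (NCU08980) had 20.4 FPKM in DS against 5.28 in HS and 186 against 89.9.

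Stress defence genes went both ways. Among 18 genes against oxidative stress, 4 were past 2-fold on the higher side and 0 on the lower (median 0.48), a nitric oxide reductase (NCU10051, 250 FPKM in DS against 45.4 in HS), *cat-1* (NCU08791, 7.85 against 2.20), *mig-8* (NCU03369, 174 against 59.3) and a superoxide dismutase (NCU09560, 769 against 343). All 4 were among the 8 from the transcript tables, which the study chose on these same libraries. The 10 listed by protein alone had a median of -0.20, with 7 below 0 and none past 2-fold. Over all genes 10.2% were higher and 7.37% lower. Of 28 detoxification genes 1 was higher and 6 lower (median -0.08). Of the 12 listed by transcript 1 was higher and 1 lower. Of the 16 listed by protein alone 5 were lower (31.25%), where 7.37% of all genes were. The lower ones included a glutathione S-transferase (NCU09570, 7.77 against 24.1), a dihydrodiol dehydrogenase (NCU08882, 79.7 against 238) and an aldehyde reductase (NCU07240, 24.3 against 67.7).

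Of 27 signaling genes 5 were at least 2-fold higher and 0 lower (median 0.33). They were 4 of the 15 listed by transcript and 1 of the 12 listed by protein alone (8.33%), where 10.2% of all genes were higher. A calcium-transporting ATPase (NCU07966) had the largest difference, with 335 FPKM in os2 DS, against 42.8 FPKM in os2 HS and 22.6 FPKM in os2 30 (log2 DS/HS 2.97). This ATPase is listed by protein too and was counted with the transcripts. *hcp-1* (NCU07221), which the study tabulated as a response regulator, had 90.4 FPKM in DS against 24.7 in HS. Of 46 transcription factors with a symbol 1 was higher and 4 lower, with a median of -0.14, so the lower share was near the 7.37% of all genes. The lower ones were *xlr-1* (NCU06971, 20.7 against 68.5), which activates xylanase genes, *nuc-1* (NCU09315, 11.8 against 26.6), the phosphorus regulator, *clr-1* (NCU07705, 13.4 against 29.5), which activates cellulase genes, and *ada-4* (NCU03320, 0.946 against 1.92).

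Falls were smaller than rises. Among genes with a mean of 10 FPKM or more NCU02545 fell most, with 0.355 FPKM in os2 DS, against 10.5 FPKM in os2 HS and 23.7 FPKM in os2 30 (log2 DS/HS -4.88), and the second in order, NCU07895, had a log2 DS/HS of -2.68. The 15th largest fall was -2.09 and the 15th largest rise 3.49. The 15 falls included a pair of carbohydrate genes, invertase *inv* (NCU04265), with 117 FPKM in DS, against 634 in HS and 221 at 30°C, and xylulose kinase *xyk-1* (NCU11353), with 3.50 FPKM in DS, against 22.2 in HS and 9.97 at 30°C. Of the 15 rises 8 were genes of the study's tables, of the 15 falls 2 were.

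**Figure D4:**
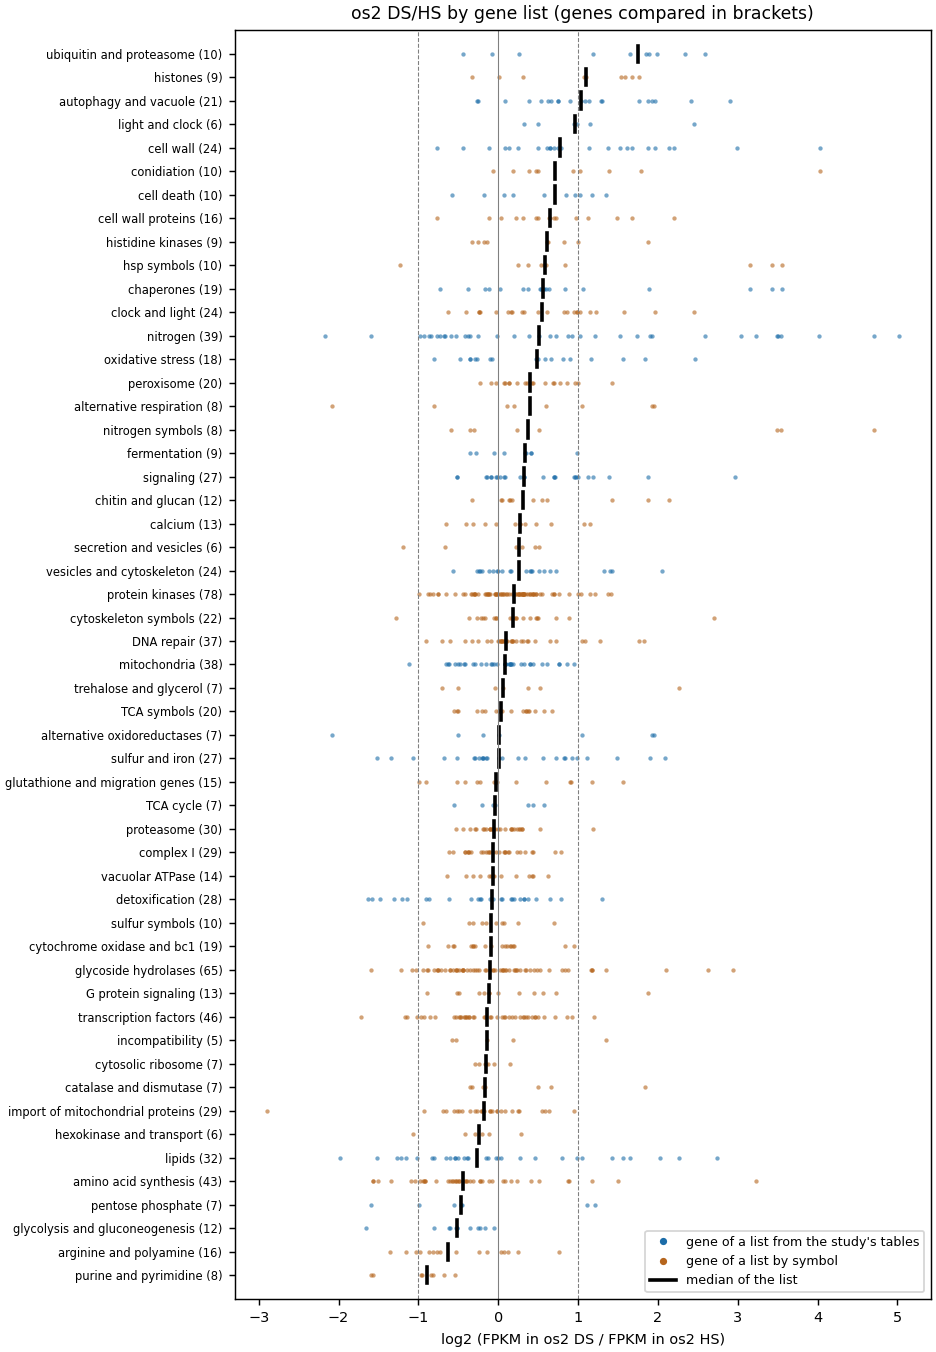
log2 DS/HS in os2 of each gene in the 53 lists with at least 5 genes compared, ordered by median (black bars), with categories of the study's tables in blue, lists by gene symbol in brown and dashed lines at 2-fold. Ubiquitin and proteasome genes (median 1.75), histones (1.10) and autophagy and vacuole genes (1.04) stand at the top, and purine and pyrimidine synthesis (-0.90) at the bottom. Many genes in blue were chosen by the study on these same libraries, so the order depends on that choice as well. The 7 ubiquitin genes listed by transcript had a median of 1.89, and the 3 listed by protein alone -0.08.

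Over the 53 lists with at least 5 genes compared, 13 had a median above 0.5 and 3 below -0.5, and 8 held no gene past 2-fold. Genes that the study had tabulated for transcripts higher in at least 1 of its comparisons had a median log2 DS/HS of 0.98 over 111, with 53 at least 2-fold higher and 5 lower. Those tabulated for lower transcripts had a median of -0.14 over 81, with 21 higher and 10 lower. The 182 genes listed by protein alone had a median of 0.09, with 10 higher (5.49%) and 9 lower (4.95%), beside 10.2% and 7.37% of all genes. Genes also tabulated for their transcripts are not among the 182, so these shares depend on that choice and are no independent check.

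Genes that differed together were in places neighbours on the chromosome. In the order of the RefSeq table of assembly NC12 there were 28 runs of at least 3 adjacent genes that were all at least 2-fold higher, with 93 genes, and 8 runs that were all lower, with 24 genes. The longest held 5 genes, NCU12119, NCU03886, NCU03887, NCU03888 and NCU03889, on chromosome VI (2039149 to 2057088). In it NCU03887 had 298 FPKM in os2 DS against 21.7 FPKM in os2 HS (log2 3.78), and NCU03889, a SNARE protein, 176 against 42.6. On chromosome V (2805379 to 2819296) the ammonium transporter Mep2 and *lao* lay side by side between NCU01064 (23.8 against 9.09) and NCU01067 (70.1 against 30.1). *ubi* lay beside NCU11215 and TamA on chromosome VI, and *hsp30* beside NCU16376 (23.9 against 2.57) and NCU09365 (17.2 against 6.35). The library kit is not stated to keep strand, so reads of overlapping neighbours cannot be told apart.

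In wt the ratio DS/HS was wider. Of 8079 genes compared, 1707 (21.1%) were at least 2-fold higher and 1642 (20.3%) lower in wt DS than in wt HS, together 41.5%, and the SD of log2 DS/HS over genes was 0.97 in os2 and 1.53 in wt over the 8063 genes with both ratios. The os2 and wt ratios share no library. Across these genes Spearman's rho between them was 0.03, a description across genes, which are not independent. Of 820 genes higher in os2, 249 (30.4%) were also higher in wt, which is 14.6% of the 1704 higher in wt, and 167 (20.4%) were lower in wt. Of 592 genes lower in os2, 158 (26.7%) were lower in wt, 9.66% of the 1635 there, and 146 (24.7%) were higher in wt. Between the 2 unstressed libraries, 239 genes (2.99%) were higher and 240 (3%) lower in os2 30 than in wt 30, together 6%. These 2 libraries differ in strain and are not replicates, so this share does not measure the spread between libraries of 1 condition.

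**Figure D5:**
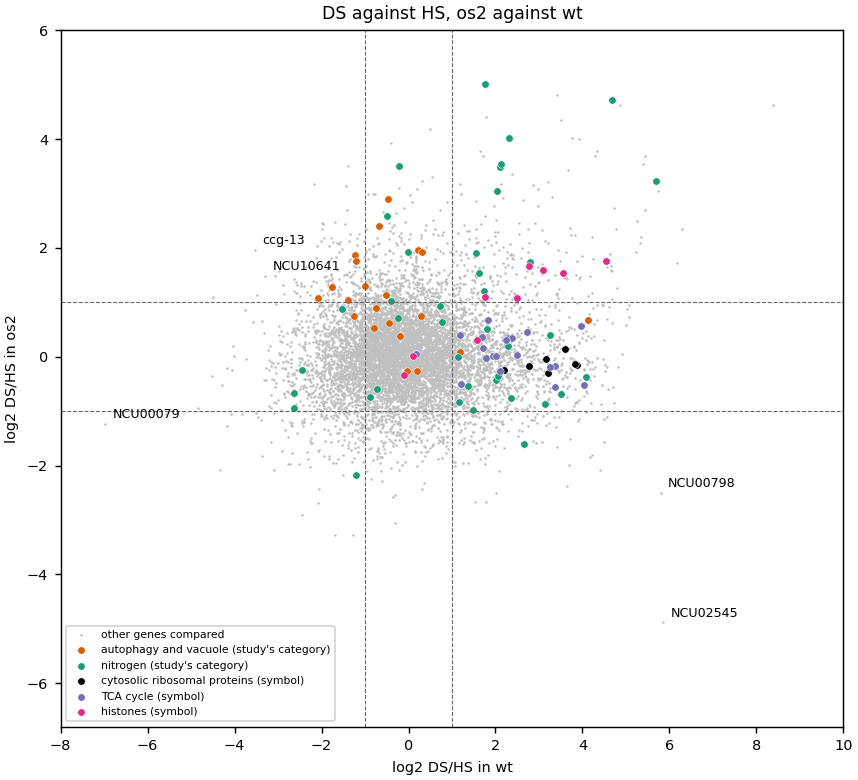
log2 DS/HS in os2 (vertical axis) against wt (horizontal axis), 1 point per gene, with dashed lines at 2-fold and 14 genes outside the axes not drawn. Cytosolic ribosomal proteins (median -0.15 in os2 and 3.21 in wt) and TCA cycle genes (0.04 and 2.17) lie to the right near 0 on the vertical axis. Autophagy and vacuole genes (1.04 and -0.51) lie mostly above 0 and left of the centre. The study listed 12 of these 21 for their transcripts in these same libraries.

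Ribosomal, respiratory and purine genes differed between the strains. The 7 cytosolic ribosomal proteins had a median log2 DS/HS of -0.15 in os2 and 3.21 in wt. For example, *crp-7* (NCU08627) had 1326 FPKM in os2 DS and 1484 in os2 HS, and 4551 FPKM in wt DS and 670 in wt HS. TCA cycle symbols had medians of 0.04 in os2 and 2.17 in wt, cytochrome oxidase and bc1 genes of -0.09 and 2.30, and purine and pyrimidine genes of -0.90 and 1.32. In *ad-7* (NCU04216) os2 had 56.6 FPKM in DS and 110 in HS, and wt had 48.3 in DS and 8.58 in HS. The levels in DS were thus near each other, while the levels in HS differed between the strains.

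Autophagy and vacuole genes had medians of 1.04 in os2 and -0.51 in wt. The 12 listed by transcript, which the study chose on these same libraries, had medians of 1.53 in os2 and -0.71 in wt. The 9 listed by protein alone had 0.53 and -0.19. Atg17 had 206 FPKM in os2 DS and 96.7 in os2 HS, and 112 FPKM in wt DS and 471 in wt HS. The light and clock genes of the protein table had medians of 0.97 in os2 and -0.73 in wt. *ccg-1* (NCU03753), a glucose-repressible gene, had 414 FPKM in os2 DS and 210 in os2 HS, and 12535 FPKM in wt DS and 51910 in wt HS. *ccg-1* levels in os2 were far below those of wt in both treatments.

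Other groups went the same way in both strains, at unequal size. *nit-6* had log2 DS/HS of 4.71 in os2 and 4.67 in wt, *nit-3* of 3.49 and 2.09, and *nit-10* of 3.54 and 2.13. *hsp30* had 3.15 in os2 and 2.86 in wt, and *hsp98* 3.55 and 5.39. The 9 histone genes had medians of 1.10 in os2 and 2.50 in wt, and the 10 hsp symbols 0.59 and 2.47. With 1 library per condition none of these strain differences was tested.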

How the data were processed

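Conidia of *N. crassa* wt and os2 gave 6 RNAseq libraries, 1 per strain and condition, prepared from polyadenylated RNA. FPKM per gene were deposited as the authors obtained them from Cufflinks, after TopHat alignment of the reads to the 74a_12 reference. The submitters' processing notes also name CASAVA 1.8.2, FastQC and Cuffdiff; other versions are not given in the sources used here. The authors' Cuffdiff p-value filter was not repeated. FPKM divides by transcript length and library size, so a value is relative to all other transcripts of its library.

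Samples were grouped by title. 1 row without an identifier was left out, and 0 columns were unmapped. The ratio os2 DS/HS was taken without a pseudocount for genes with a mean of at least 1 FPKM over the 6 libraries and above 0 in both, and called at 2-fold. Depth per gene is unknown. RefSeq (assembly NC12) matched 9729 of 9730 loci and gave 1118 symbols.

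Lists were categories of the study's tables (377 loci, 1 not in the table used here) and symbol patterns, 60 in all. A locus that the study listed both by transcript and by protein was counted with the transcripts. Lists with fewer than 5 genes compared were not described as groups. Named genes were *os-2*, list members, the 15 largest rises and 15 largest falls, the 10 largest shares of os2 DS, the 5 largest and 5 smallest os2 minus wt differences (mean of at least 10 FPKM), and genes listed at 0 in 1 library and at 10 or more in the other. Genes beside the 2-fold limit or in runs of neighbours were named for their place. Members and lists were chosen with earlier results of these data known. Alternatives were 3 scalings of the columns, 0.1 or 1 FPKM added, no filter, a mean of at least 10 FPKM, and a 4-fold limit. Scripts were tested on simulated data and run under Python 3.11.15 (pandas 2.3.3, numpy 2.4.6, scipy 1.17.1).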

Additional observations from a re-analysis of the deposited data

Results flagged for a closer look

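In these results os2 and wt moved at least 2-fold in opposite directions between DS and HS. Each strain has 1 library per condition, so the difference was not tested. There were 167 genes higher in os2 DS than os2 HS and lower in wt DS than wt HS, and 146 genes lower in os2 and higher in wt. The 167 were 20.4% of the genes higher in os2, where 20.3% of all genes were lower in wt, so this share was at the background. The 146 were 24.7% of the genes lower in os2, where 21.1% of all genes were higher in wt.

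Among the genes with the largest differences, 4 were higher in os2 and lower in wt. *ccg-13* (NCU08907), a wall protein, had a log2 DS/HS of 1.97 in os2 and -3.54 in wt, NCU10641 of 1.49 and -3.30, NCU07964 of 2.45 and -1.99, and NCU01874 of 2.44 and -1.97.

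Those lower in os2 and higher in wt were NCU02545, with a log2 DS/HS of -4.88 in os2 and 5.86 in wt, NCU00798 with -2.50 and 5.80, NCU10220 with -2.08 and 4.40, NCU00309 with -1.56 and 4.49, NCU07942 with -1.81 and 4.22, NCU16402 with -2.51 and 2.02, NCU02729 with -2.10 and 2.09, and *xyk-1* (NCU11353) with -2.66 and 1.52. NCU02545 had 0.355 FPKM in os2 DS and 10.5 in os2 HS, and 16.9 in wt DS and 0.292 in wt HS. NCU00309, the most abundant of these 8, had 70.1 FPKM in os2 DS and 207 in os2 HS, and 174 in wt DS and 7.72 in wt HS. Among genes with a mean of at least 10 FPKM NCU00079 had the largest os2 minus wt difference, 5.74, but was lower in both strains, with -1.23 in os2 and -6.97 in wt.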

How the results depend on the processing

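No paired analysis was possible because each condition has 1 library. After scaling both libraries to 1 total, 577 genes were at least 2-fold higher and 919 lower in os2 DS, against 824 and 595 as deposited; with the same upper quartile they were 706 and 736. A mean of at least 10 FPKM left 541 higher and 346 lower of 5585 genes, and a 4-fold limit 165 and 36. Of 968 named genes, 31 fell below 2-fold and 32 passed it with the same total, which shifts every gene alike and so could not turn a gene past 2-fold. List medians changed sign for 6 of 53 lists with the same total, each within 0.103 of 0 as deposited, and for 5 with a mean of at least 10 FPKM, among them the 9 histidine kinase and phosphorelay genes, 0.61 as deposited and -0.14 there. The planned search of promoter motifs was not run, since promoter windows were not used here. Depth per gene is unknown, so no alternative measures counting error.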

Other observations

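Of 10 conidiation genes compared 4 were at least 2-fold higher and 0 lower in os2 DS, where 10.2% of all genes were higher and 7.37% lower. Their median log2 DS/HS was 0.72. Beside *eas* and *con-8* they were *fld* (NCU09739), with 79.9 FPKM in os2 DS, against 23.1 FPKM in os2 HS, and *acon-2* (NCU00478), with 26.8 against 10.3. Of 24 clock and light genes 6 were higher and 0 lower (median 0.55), among them *wc-1* (NCU02356), the blue light receptor, with 59.5 FPKM in DS against 29.3 in HS, and *ccg-14* (NCU07787), with 91.9 against 16.9. The clock gene *frq* (NCU02265) had 61.8 FPKM in DS against 82.1 in HS.

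Among 37 DNA repair genes 5 were at least 2-fold higher and 0 lower in os2 DS, with a median log2 DS/HS of 0.10. Over all genes 10.2% were higher and 7.37% lower, and the counts in this paragraph stand beside these shares. *mus-43* (NCU08742) had 48.0 FPKM in os2 DS, against 14.1 FPKM in os2 HS, and *msh4* (NCU10895), a mismatch repair homologue used in meiosis, 6.97 against 1.97. Of 22 cytoskeleton genes *nudf-1* (NCU04312), a dynein regulator, had 68.0 FPKM in DS against 10.5 in HS (log2 2.70), and the median was 0.19. Of 65 glycoside hydrolases 7 were higher and 4 lower, both near the shares of all genes, with a median of -0.11. Among them *gh61-2* (NCU07760) had 80.5 FPKM in DS against 13.02 in HS. Of 78 protein kinases 5 were higher and 0 lower (median 0.19), and of 20 peroxisome genes 1 was higher, *pex2* (NCU02070), with 33.1 FPKM in DS against 12.4 in HS, while 17 of the 20 were above 0 (median 0.39).

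Several of the strongest rises have no symbol in the RefSeq table. NCU05712 had 27.8 FPKM in os2 DS, against 1.12 FPKM in os2 HS and 268 FPKM in os2 30. NCU04496 had 386 FPKM in DS, against 29.7 in HS and 1876 at 30°C. By contrast NCU03535 had 222 FPKM in DS, against 17.1 in HS and 0.578 at 30°C, and NCU07082 had 66.3, 5.13 and 0.428 FPKM in DS, HS and at 30°C. The first pair was most abundant at 30°C and the second pair in DS.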
